A study of Homo sapiens with 6 samples.

Results

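The transforming growth factor beta (TGF-beta) core is the set of 9 genes that encode its 3 ligands (TGFB1, TGFB2, TGFB3), its 2 signalling receptors (TGFBR1, TGFBR2), and SMAD2, SMAD3, SMAD4 and SMAD7. The genes were taken by symbol from a deposited table of 63241 genes, and all 9 were found, once each. The table comes from RNA sequencing of PANC-1 cells, one established line from a human pancreatic carcinoma, with a wild-type genotype label and grown with serum. Cells received 20 µM Schisandrin B, a lignan of Schisandra fruit, or vehicle (DMSO below 0.1%) for 24 h, and 3 libraries were made for each group. The libraries held between 13656826 and 18289410 gene counts. No label states that the replicates were grown as separate cultures, and p-values here rest on the spread among these libraries, which may be technical.

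TGF-beta ligands are secreted in latent complexes and, once released, bind the type II receptor TGFBR2, which recruits and phosphorylates the type I receptor TGFBR1. TGFBR1 phosphorylates SMAD2 and SMAD3, these join SMAD4, and the complex enters the nucleus to change transcription. SMAD7 is an inhibitory SMAD that binds the type I receptor and is itself induced by the pathway. In pancreatic ductal carcinoma SMAD4 is often lost, and TGF-beta is known both to restrain growth of epithelial cells and to drive their change towards a mesenchymal form.

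Schisandrin B moved the ligands, the receptors and the SMADs unevenly. TGFB1 and TGFBR1 rose, TGFB3 and SMAD3 fell, SMAD2 and SMAD4 passed in neither direction, and TGFB2, TGFBR2 and SMAD7 had too few counts in either group to be tested. Thus 6 of the 9 genes were tested by edgeR's quasi-likelihood test, with 4 called at an adjusted p under 0.05 (2 higher and 2 lower). Of all 15773 tested genes 70.2% were called, 35% as higher and 35.2% as lower, so the share among the 6 is near the background. The 4 called genes were also those whose groups did not overlap (2 higher, 2 lower), which was the case for 73.5% of all tested genes, 36.4% higher and 37.1% lower. The median log2 fold change was 0.02 over the 6 genes and 0.00041 over all tested genes. All changes are relative to the other genes, and in bulk RNA fewer cells of a type and less RNA per cell cannot be told apart.

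**Figure D1:**
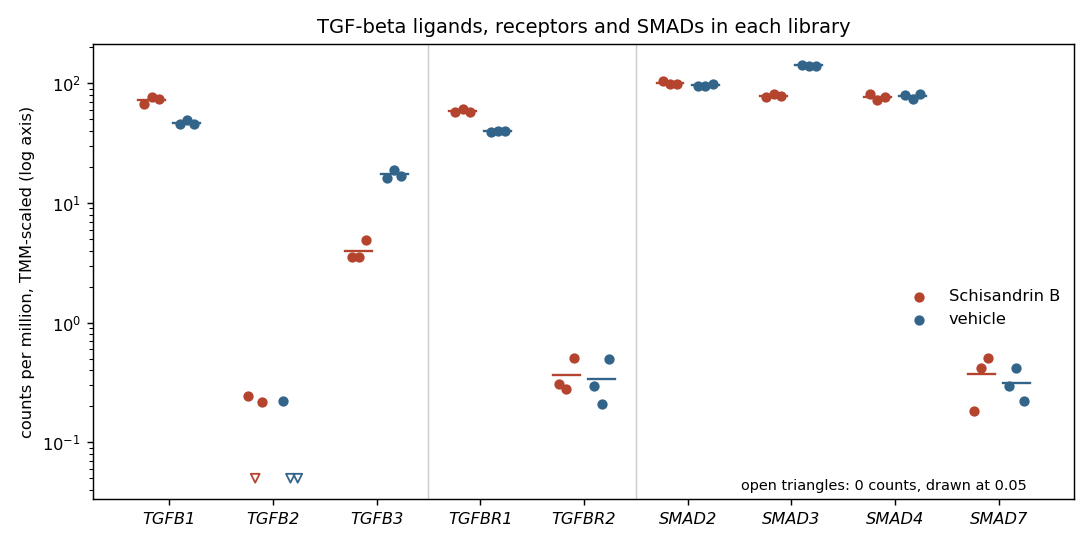
Counts scaled to library size by the TMM method (CPM, log axis) of the 9 genes in each library, with 3 Schisandrin B libraries on the left and 3 vehicle libraries on the right of each gene. Points are libraries, bars are group means, and open triangles are libraries with 0 counts. TGFB1 and TGFBR1 lie higher in Schisandrin B, TGFB3 and SMAD3 lie lower, and TGFB2, TGFBR2 and SMAD7 stay below 0.6 CPM throughout.

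Among the ligands, TGFB1 and TGFB3 changed in opposite directions. TGFB1 encodes the most widely expressed ligand (ENSG00000105329, GRCh38, chr19:41301587-41353922, minus strand). Its level, in counts scaled to library size (CPM), was 67.2, 77.0 and 73.9 CPM in the Schisandrin B libraries, against 45.9, 49.0 and 45.3 CPM in the vehicle libraries. Every Schisandrin B library lay above every vehicle library. The log2 fold change was 0.64 (SE 0.06, 95% interval 0.47 to 0.81), a 1.56-fold rise (edgeR adjusted p = 7.19e-08). Another 5 annotated genes overlap TGFB1, of which 4 lie on the opposite strand, and whether reads were counted by strand was not given in the sources used here, which leaves reads of such genes uncertain. The most abundant of them is HNRNPUL1, which held 9934 counts over the Schisandrin B libraries and 22721 over the vehicle libraries. CCDC97 also had fewer counts in Schisandrin B (1738 against 2470), and ENSG00000255730 had 1 against 2. TMEM91 (178 against 157) and ENSG00000286177, which lies on the strand of TGFB1 (61 against 44), had more. The part of such reads in the TGFB1 counts was not tested.

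TGFB3, a ligand known for its part in palate closure and scarring, changed most of the tested genes of the set (ENSG00000119699, chr14:75958097-75983011, minus strand). It had 58, 51 and 68 raw counts in the Schisandrin B libraries, against 219, 271 and 303 in the vehicle libraries. That corresponds to 4.00 ± 0.777 CPM in Schisandrin B and 17.4 ± 1.44 CPM in vehicle (SD, n = 3 each), and the groups did not overlap. TGFB3 fell 4.35-fold, a log2 fold change of -2.12 (SE 0.14, 95% interval -2.52 to -1.72, edgeR adjusted p = 6.79e-10). Only 4.71% of all tested genes had a larger log2 fold change in either direction. The opposite-strand gene IFT43, which overlaps TGFB3, held 884 counts over the Schisandrin B libraries and 996 over the vehicle libraries.

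TGFB2, the remaining ligand (ENSG00000092969, chr1:218345336-218444619, plus strand), was close to undetected. Its counts were 4, 0 and 3 in the Schisandrin B libraries and 3, 0 and 0 in the vehicle libraries. The ratio of count rates, Schisandrin B over vehicle, was 2.40 with an exact binomial 95% interval of 0.547 to 14.4, and no difference was detectable at this depth. With 1 library left out, the log2 of this ratio, 1.26 over all libraries, ran from 0.54 without vehicle replicate 3 to 1.82 without Schisandrin B replicate 2, and without vehicle replicate 1 no vehicle count was left. Intervals of this kind cover counting error only.

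The 250 bases before the RefSeq start sites of TGFB1 and TGFB3 (GRCh38.p14) are shown 5′ to 3′ along the gene's strand because these ligands changed in opposite directions. Capitals mark the SMAD element CAGAC on either strand, the only 1 of 4 motifs searched that was found.

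TGFB1, chr19:41353923-41354172, minus strand: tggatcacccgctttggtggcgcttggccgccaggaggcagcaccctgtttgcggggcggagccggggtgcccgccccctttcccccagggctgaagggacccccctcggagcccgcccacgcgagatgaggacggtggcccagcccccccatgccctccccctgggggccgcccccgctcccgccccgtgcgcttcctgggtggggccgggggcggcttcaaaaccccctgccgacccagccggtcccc

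TGFB3, chr14:75983012-75983261, minus strand: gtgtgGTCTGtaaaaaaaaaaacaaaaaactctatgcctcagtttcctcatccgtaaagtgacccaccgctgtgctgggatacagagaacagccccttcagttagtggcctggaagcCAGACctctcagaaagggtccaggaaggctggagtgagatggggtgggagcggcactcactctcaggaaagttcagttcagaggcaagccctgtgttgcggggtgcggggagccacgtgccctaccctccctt

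The TGFB1 window has no match to any of the 4 motifs and is 76.8% G or C, against a median of 58% over 27305 RefSeq upstream windows of the same length. The TGFB3 window is 54.8% G or C and holds CAGAC at 2 places, 245 and 133 bases before the start, once on each strand. Of all windows, 37.8% hold CAGAC on either strand, so its presence is common. The palindrome GTCTAGAC (0.176% of windows), the AP-1 element TGANTCA (6.6%) and the C/EBP-ATF element TGATGNAA (3.19%) were searched on both strands and had no match in the windows of the 9 genes. A match of letters is a description and no evidence of a bound site.

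Of the receptors, TGFBR1 rose and TGFBR2 was near the limit of detection in both groups. TGFBR1, the type I receptor kinase (ENSG00000106799, chr9:99104038-99154192, plus strand), had 57.1, 61.4 and 57.6 CPM in the Schisandrin B libraries, against 38.9, 39.7 and 40.3 CPM in the vehicle libraries. The groups did not overlap, and each was tight around its mean. TGFBR1 rose 1.48-fold, a log2 fold change of 0.57 (SE 0.06, 95% interval 0.40 to 0.73, edgeR adjusted p = 1.86e-07). TGFBR2, the type II receptor that binds the ligand first (ENSG00000163513, chr3:30606601-30694142, plus strand), had only 5, 4 and 7 counts in the Schisandrin B libraries and 4, 3 and 9 in the vehicle libraries. The totals were 16 counts in Schisandrin B and 16 in vehicle. Their ratio of count rates was 1.03 (exact binomial 95% interval 0.481 to 2.19), a range that also holds the 1.48-fold of TGFBR1.

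SMAD3 fell while its close relative SMAD2 did not pass the test. SMAD3, a receptor-activated SMAD that binds DNA directly (ENSG00000166949, chr15:67063763-67195173, plus strand), had 77.5, 80.9 and 79.0 CPM in the Schisandrin B libraries, against 143, 140 and 141 CPM in the vehicle libraries. The groups were far apart compared with their spread. SMAD3 fell 1.79-fold, a log2 fold change of -0.84 (SE 0.05, 95% interval -0.96 to -0.71, edgeR adjusted p = 3.27e-11). SMAD2, the other receptor-activated SMAD (ENSG00000175387, chr18:47808957-47931146, minus strand), had 104, 99.7 and 98.3 CPM in the Schisandrin B libraries, against 95.8, 94.5 and 99.5 CPM in the vehicle libraries. These values overlap, and the log2 fold change was 0.06 (SE 0.05, 95% interval -0.07 to 0.19, edgeR adjusted p = 0.275). With genes kept only at 5 CPM or more in 3 libraries, SMAD2 was called higher at a log2 fold change of 0.14 (edgeR adjusted p = 0.0132), a setting that moved the median of all genes by 0.08.

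SMAD4, the shared partner of the receptor-activated SMADs (ENSG00000141646, chr18:51028528-51085045, plus strand), was expressed in every library. It had 81.8, 72.9 and 77.5 CPM in the Schisandrin B libraries, against 79.4, 73.8 and 82.1 CPM in the vehicle libraries. The groups overlap, with a log2 fold change of -0.02 (SE 0.06, 95% interval -0.18 to 0.14, edgeR adjusted p = 0.777) whose sign turned with library totals in place of TMM and with FPKM. SMAD7, the inhibitory SMAD (ENSG00000101665, chr18:48919853-48950965, minus strand), had 3, 6 and 7 counts in the Schisandrin B libraries and 4, 6 and 4 in the vehicle libraries. Its ratio of count rates was 1.17 (exact binomial 95% interval 0.537 to 2.60), and no difference was detectable at this depth.

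The upstream sequences of the called receptor and the called SMAD are shown beside each other, since TGFBR1 rose and SMAD3 fell.

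TGFBR1, chr9:99104863-99105112, plus strand: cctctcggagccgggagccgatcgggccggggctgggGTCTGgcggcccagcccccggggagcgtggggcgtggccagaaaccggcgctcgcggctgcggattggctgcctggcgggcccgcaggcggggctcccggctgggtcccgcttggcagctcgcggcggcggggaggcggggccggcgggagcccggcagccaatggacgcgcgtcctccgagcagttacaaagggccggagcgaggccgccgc

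SMAD3, chr15:67065352-67065601, plus strand: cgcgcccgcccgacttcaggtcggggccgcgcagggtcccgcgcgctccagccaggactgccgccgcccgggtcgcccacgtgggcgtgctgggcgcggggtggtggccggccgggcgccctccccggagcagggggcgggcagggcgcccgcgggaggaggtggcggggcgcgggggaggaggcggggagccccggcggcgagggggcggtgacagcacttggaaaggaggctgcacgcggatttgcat

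Both windows are rich in G and C, at 79.6% for TGFBR1 and 80.8% for SMAD3. TGFBR1 holds CAGAC once, as its complement, 213 bases before the start, and SMAD3 has none of the 4 motifs. RefSeq lists 8 windows for TGFBR1 and 5 for SMAD3, and only the first of each was used. Their RefSeq starts, 99105113 and 67065602, lie inside the deposited gene spans rather than at their ends.

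**Figure D2:**
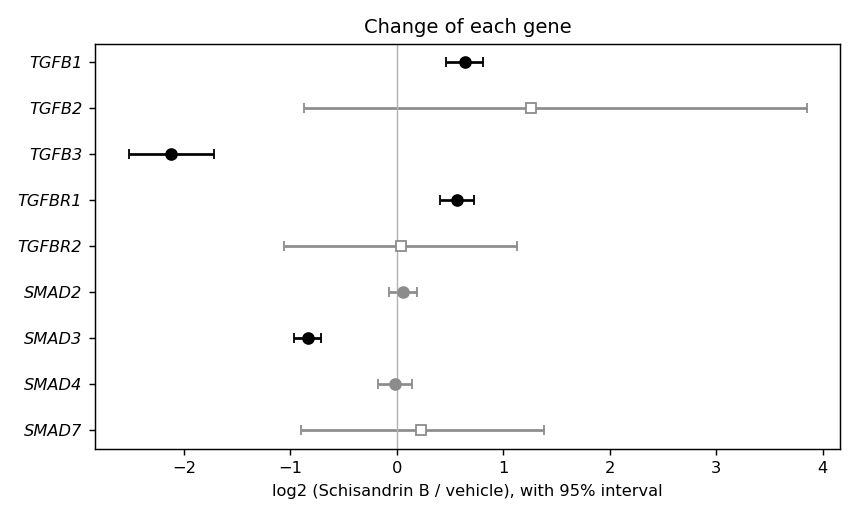
Change of each gene on the log2 scale, Schisandrin B over vehicle, with 95% intervals. Filled points are edgeR log2 fold changes of the 6 tested genes, black where the adjusted p was under 0.05 and grey otherwise, and open squares are ratios of count rates of the 3 genes with few counts. The intervals of TGFB2, TGFBR2 and SMAD7 all span 0, whereas that of TGFB3 runs from -2.52 to -1.72.

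The deposited FPKM values, which are scaled for gene length and so allow levels of different genes to be compared, gave the order of the genes in each group. In Schisandrin B the highest level was that of TGFB1, at 23.5 ± 0.64 FPKM, followed by SMAD3 at 12.2 ± 0.202, while in vehicle SMAD3 led at 20.0 ± 0.33 FPKM and TGFB1 followed at 14.5 ± 0.536 (SD, n = 3 each). The leading pair thus changed places, with no overlap between the 2 genes in either group. SMAD4 came next in both groups, at 9.86 ± 1.59 FPKM in Schisandrin B and 8.29 ± 0.606 FPKM in vehicle. In Schisandrin B the values of SMAD4 overlapped those of TGFBR1 (8.57 ± 0.325 FPKM), and those of TGFBR1 overlapped those of SMAD2 (7.24 ± 1.07 FPKM), so their order there is not firm. In vehicle SMAD2 (6.94 ± 0.504 FPKM) stood above TGFBR1 (5.37 ± 0.28 FPKM), and TGFBR1 overlapped TGFB3 (5.09 ± 0.661 FPKM). TGFB3 had 1.14 ± 0.184 FPKM in Schisandrin B. SMAD7, TGFBR2 and TGFB2 were last in both groups, each with a mean of 0.1 FPKM or less. The gene length implied by counts and FPKM together was not the same in every library, and ranged 1.34-fold for SMAD2 and 1.32-fold for SMAD4, against 1.08-fold for TGFB1. For SMAD4 it was 7170 to 8610 bases in Schisandrin B and 9170 to 9480 in vehicle. For SMAD3 it was 6370 to 6750 bases in Schisandrin B and 6860 to 6990 in vehicle. The FPKM of SMAD3 and SMAD4 thus also hold a length difference between groups, whereas the lengths of SMAD2, TGFBR1, TGFB1 and TGFB3 overlapped.

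The make-up of the ligand RNA differed between groups, while ligand protein was not measured. TGFB3 made up 4.48%, 3.99% and 5.33% of the summed ligand FPKM in the Schisandrin B libraries, against 26.1%, 27.6% and 23.9% in the vehicle libraries. TGFB1 made up nearly all of the remainder. The summed ligand level itself was 24.6 ± 0.704 FPKM in Schisandrin B and 19.6 ± 1.17 FPKM in vehicle (SD, n = 3 each). These shares and sums were computed after the values of the single genes were seen.

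Ratios between genes were compared within each library for 5 pairs, with exact two-sided permutation tests over the 6 libraries, for which 0.1 is the smallest p that 3 against 3 allows. The log2 ratio of TGFB3 to TGFB1 was -4.38 ± 0.221 in Schisandrin B and -1.52 ± 0.141 in vehicle, a difference of -2.86 (exact p = 0.1, adjusted over 5 pairs 0.25). The log2 ratio of SMAD3 to SMAD2 was 0.76 ± 0.211 in Schisandrin B and 1.53 ± 0.084 in vehicle, a difference of -0.77 (exact p = 0.1, adjusted 0.25). In both pairs the groups did not overlap, and this design cannot pass a threshold of 0.05. The ratio of SMAD4 to SMAD2 overlapped between groups (difference 0.19, or -0.08 from CPM, exact p = 0.4, adjusted 0.4). The ratios of TGFBR2 to TGFBR1 (difference -0.57) and SMAD7 to SMAD3 (difference 0.89) also overlapped, each with exact p = 0.3 and adjusted 0.375, and both rest on single-digit counts of TGFBR2 or SMAD7. TGFB2 to TGFB1 was not computed, because TGFB2 is listed at 0 in some libraries.

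**Figure D3:**
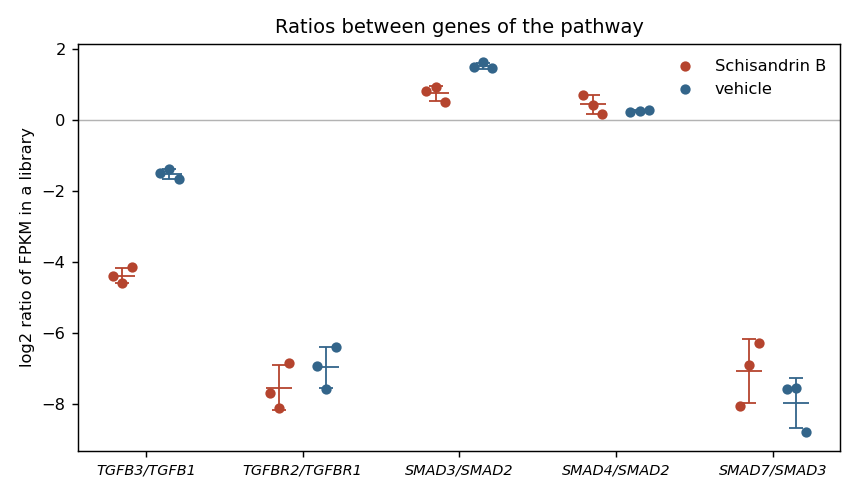
Log2 ratio of FPKM between 2 genes in each library, for 5 pairs, with 3 Schisandrin B libraries on the left and 3 vehicle libraries on the right of each pair. Points are libraries, and bars are the mean with its SD. The groups are separate for TGFB3/TGFB1 and SMAD3/SMAD2 and overlap for the other 3 pairs.

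The genes whose pattern over the 6 libraries was most like those of TGFB3 and SMAD3 were found among 12471 other tested genes whose deposited biotype is protein-coding, by the distance between log2 CPM values centred on each gene's mean. Nearest to TGFB3 were HCFC1R1 (distance 0.173 log2 units), SEPTIN4 (0.244) and TUBA3FP (0.248), which the deposited table types as protein-coding but describes as a tubulin pseudogene, so that its reads may be shared with its copies, with log2 fold changes of -2.14, -2.29 and -2.44. Nearest to SMAD3 were OSBPL5 (distance 0.0326), RRP36 (0.0567) and MRPL34 (0.0615). With 2 groups of 3 libraries, likeness says little more than that the genes changed by a similar amount.

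Most of the tested genes listed for the latent complex and its activation rose, and not each is known to store or release the ligands. Of 14 genes on this list, 11 were tested, 7 rose, 1 fell and 3 did not pass, and the median log2 fold change was 0.74. The called share of 72.7% is near the 70.2% of all tested genes, of which 35% were called higher and 35.2% lower. LTBP4, a latent TGF-beta binding protein of the matrix, rose 2.60-fold to 129 ± 12.3 CPM in Schisandrin B, against 49.4 ± 0.557 CPM in vehicle (SD, n = 3 each, edgeR adjusted p = 6.1e-12). LTBP1, which tethers the latent ligand in the matrix, rose 1.98-fold. MMP14, a membrane-bound metalloprotease, rose 5.10-fold. ITGB8, the beta chain of an integrin that binds latent TGF-beta, was the gene that fell, to 1.38 ± 0.286 CPM in Schisandrin B, against 7.75 ± 1.65 CPM in vehicle (log2 fold change -2.49, SE 0.23). THBS1, LRRC32 and ITGB6, other ligand-activating or presenting genes, had under 0.2 CPM on average in both groups.

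Among 12 co-receptors and other receptors of the superfamily, 7 of 9 tested genes rose, none fell and 2 did not pass, and the median log2 fold change was 0.63. The called share was 77.8%, against 70.2% of all tested genes, of which 35% were called higher and 35.2% lower. TGFBR3, or betaglycan, which presents the ligands to TGFBR2, had 62.4, 55.6 and 51.5 CPM in the Schisandrin B libraries, against 34.4, 36.8 and 38.2 CPM in the vehicle libraries. It rose 1.55-fold (log2 fold change 0.63, SE 0.07, edgeR adjusted p = 7.63e-07), without overlap. ACVR1 and BMPR1B, type I receptors of the BMP branch, rose 2.43-fold and 3.58-fold, and ACVR2B, an activin type II receptor, 1.84-fold. ENG, the co-receptor endoglin, stood at 71.9 CPM in Schisandrin B and 75.2 CPM in vehicle with an edgeR adjusted p of 0.367.

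Of the remaining SMADs, 3 were tested, 2 fell and none was called higher. The called share was 66.7%, against 70.2% of all tested genes, of which 35% were called higher and 35.2% lower. A share among 3 genes says little. Of SMAD1, SMAD5 and SMAD9, which serve the BMP branch, SMAD1 and SMAD5 fell, by 0.61 (SE 0.11) and 0.26 (SE 0.06) on the log2 scale. SMAD9 had about 1 CPM (1.03 in Schisandrin B and 1.17 in vehicle, edgeR adjusted p = 0.721). SMAD6, the inhibitory relative of SMAD7, was too low to be tested, with 2, 0 and 0 counts in the Schisandrin B libraries and 7, 10 and 12 in the vehicle libraries. Its ratio of count rates was 0.0708 (exact binomial 95% interval 0.00819 to 0.28), with no overlap between groups, and this gene is named after its values were seen.

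Some negative regulators of the pathway rose and others fell. Of 18 genes, 14 were tested, 3 rose, 7 fell and 4 did not pass, and the median log2 fold change was -0.13. The called share of 71.4% is near the 70.2% of all tested genes. SMURF2, a ubiquitin ligase that targets the receptors and SMADs, rose to 432 CPM in Schisandrin B, against 247 CPM in vehicle (log2 fold change 0.80, SE 0.04). SMURF1 and NEDD4L, other ubiquitin ligases of this list, fell by 0.60 (SE 0.06) and 0.58 (SE 0.08) on the log2 scale. The SMAD co-repressors SKIL and TGIF1 rose, 2.25-fold and 1.44-fold, and their relative TGIF2 fell by 1.19 (SE 0.10) on the log2 scale. FKBP1A, which holds TGFBR1 inactive, fell by 0.79 (SE 0.04) and PMEPA1, a membrane protein that binds SMAD2 and SMAD3, by 1.09 (SE 0.11). BAMBI, a decoy receptor, was too low to be tested, at 20 counts over the Schisandrin B libraries and 6 over the vehicle libraries. By library these were 9, 4 and 7 in Schisandrin B and 2, 3 and 1 in vehicle, without overlap. Its ratio of count rates was 3.42 (exact binomial 95% interval 1.33 to 10.4, which covers counting error only).

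SMAD adaptors, nuclear partners and deubiquitinases also had members in either direction. Of 15 genes, 13 were tested, 3 rose, 5 fell and 5 did not pass, and the median log2 fold change was -0.06. The called share was 61.5%, against 70.2% of all tested genes. TFDP1, a partner of E2F factors, fell by 1.28 (SE 0.05) on the log2 scale and PIAS4, a SUMO ligase, by 0.64 (SE 0.06). HGS, an endosomal adaptor, rose 1.64-fold.

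Reported target genes of TGF-beta included some that rose and some that fell. Of 44 genes, 31 were tested, 14 rose, 10 fell and 7 did not pass, and the median log2 fold change was 0.21. The called share was 77.4%, against 70.2% of all tested genes, of which 35% were called higher and 35.2% lower. CCN2, connective tissue growth factor, had 24.1, 24.3 and 24.6 CPM in the Schisandrin B libraries, against 3.41, 4.76 and 4.45 CPM in the vehicle libraries, a 5.75-fold rise without overlap (edgeR adjusted p = 9.24e-12), and BHLHE40, a helix-loop-helix repressor, rose 3.79-fold. The targets SMURF2 and SKIL rose and PMEPA1 fell, as given above, and each is also a negative regulator. ID1, ID2 and ID3, dominant negative helix-loop-helix factors known also as BMP targets and named after their values were seen, fell by 2.44 (SE 0.13), 2.26 (SE 0.16) and 2.16 (SE 0.15) on the log2 scale. Many of these genes answer to other pathways as well. The list does not separate genes that TGF-beta raises from genes that it lowers. Its rises and falls thus do not tell whether the pathway was more or less active.

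**Figure D4:**
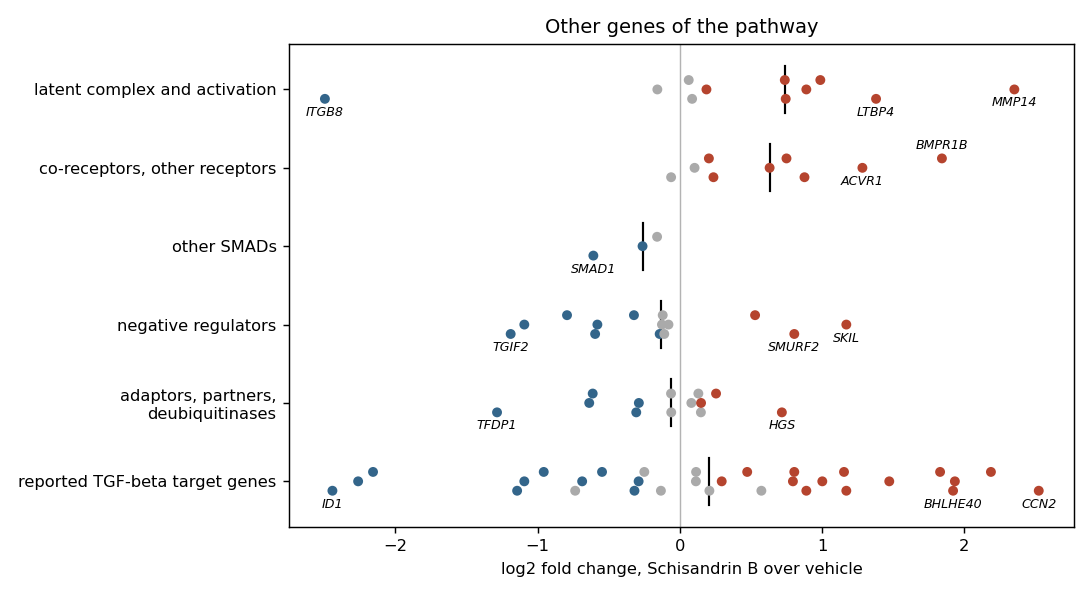
Log2 fold change, Schisandrin B over vehicle, of the tested genes in 6 lists of the pathway. Each point is a gene, red where called higher, blue where called lower and grey where neither, and black bars mark list medians. The medians lie at 0.74 for the latent complex, 0.63 for other receptors and 0.21 for reported targets, and at -0.26, -0.13 and -0.06 for the other 3 lists.

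The label was set beside marker genes, which do not settle it, as only 3 of 6 epithelial markers had enough counts to be tested. KRT8, KRT18 and KRT19, keratins of ductal epithelium, were detected in all libraries and fell, whereas KRT7, EPCAM and CDH1 each averaged under 0.4 CPM in both groups. The 6 epithelial markers summed to 633 to 643 CPM in the Schisandrin B libraries and to 1300 to 1420 CPM in the vehicle libraries. The 5 fibroblast markers summed to 43.5 to 44.8 CPM in Schisandrin B and to 213 to 230 CPM in vehicle, nearly all of it COL1A2, with DCN, LUM, PDGFRA and PDGFRB each under 1 CPM. The 4 endothelial markers summed to 1.32 to 1.94 CPM in Schisandrin B and to 13.4 to 13.7 CPM in vehicle, mostly CDH5, with PECAM1 and KDR near 0. The 4 leukocyte markers summed to 50.7 to 57.7 CPM in Schisandrin B and to 24.6 to 27.5 CPM in vehicle, mostly CD68, with PTPRC and CD3E near 0. Mitochondrial transcripts took 6.19% to 7.10% of counts in Schisandrin B and 3.96% to 4.5% in vehicle. The part of these shifts in the changes of the TGF-beta genes was not tested.

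The authors' deposited table gave the same signs for the 6 tested genes. It lists log2 fold changes of 0.60 for TGFB1, -2.16 for TGFB3, 0.53 for TGFBR1 and -0.88 for SMAD3, and in the authors' deposited table these 4 have adjusted p from 1.97e-44 to 8.83e-09. The authors' deposited table also has 45.7% of its 21466 genes with an adjusted p under 0.05, and only TGFB3 among the 9 genes is marked there as regulated, where every marked gene has a log2 fold change of at least 1 in size and an adjusted p of at most 0.0995.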

How the data were processed

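PANC-1 RNA was sequenced in 3 Schisandrin B and 3 vehicle libraries (SMARTER mRNA-Seq kit, per the labels' protocols), and groups and replicate numbers follow the sample titles. The deposited counts are whole numbers per gene, per the file headers. The deposited FPKM values are per gene length and library size, per the file headers. The authors' fold column is the ratio of treated to vehicle cells, with a log2 column beside it, per the file headers. The authors' p-values came with no named test. GRCh38 and mm10 are named in the submitters' processing notes, whereas aligner and counter were not given in the sources used here. In Schisandrin B replicate 1, the FPKM listed for GPX4 alone makes up 99.63% of the column's sum, a value that enters only the FPKM alternatives.

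The analysis of counts used edgeR 4.0.16 in R 4.3.3. Genes passing filterByExpr (15773) were scaled by TMM and tested two-sided with robust glmQLFit and glmQLFTest (quasi-likelihood), without a replicate block. P-values were adjusted by Benjamini-Hochberg over all tested genes, with a threshold of 0.05. The SE is the size of the log2 fold change divided by the square root of F, and its 95% interval uses 4 residual degrees of freedom. CPM of untested genes use the same scaling. Ratios were tested with scipy 1.17.1. The method was tested on simulated data with known changes in a small share of genes. Far more genes were called in the real data, so the simulation does not cover that setting. The alternatives were RLE factors, library totals, no filter, a filter of 5 CPM in 3 libraries, DESeq2 1.42.0, limma 3.58.1 on log2(FPKM + 0.1) and log2(FPKM + 1), the replicate block, and each library left out. No 2 libraries of a group agreed within counting noise (chi-square per gene 3.55 to 5.82).

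The genes and lists were chosen with earlier results of these data known. Named were all 9 genes, the 4 list members with the smallest adjusted p, CCN2, SKIL, PMEPA1, TGFBR3 and SMURF2 (SMAD6 and BAMBI only if tested), and the 3 nearest patterns of the 2 genes that changed most, and some of the genes so chosen are not reported here. SMAD6, BAMBI, SMURF1, NEDD4L, ID1, ID2, ID3, THBS1, LRRC32, ITGB6, ENG and the marker genes are named beside them, chosen after their values were seen. Upstream windows are the first RefSeq window of each gene (all 9 matched). Protein sequences were not analysed here.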

Additional observations from a re-analysis of the deposited data

How the results depend on the processing

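TGFB1, TGFB3, TGFBR1 and SMAD3 kept their direction and their call in every alternative run, including DESeq2, FPKM with limma and each library left out. With 1 library left out, their log2 fold changes ran from 0.60 to 0.69, -2.29 to -2.04, 0.54 to 0.59 and -0.85 to -0.82. TGFB3 changed by -1.51 with FPKM and a pseudocount of 1. SMAD2 passed only with at least 5 CPM in 3 libraries (0.14, adjusted p = 0.0132). SMAD4, not called in any alternative, turned positive with library totals (0.0242), at least 5 CPM in 3 libraries (0.0623), FPKM with a pseudocount of 0.1 (0.239) or of 1 (0.218), and ran from -0.0693 to 0.0286 with 1 library left out (positive without Schisandrin B replicate 2 or vehicle replicate 3). SMAD9, also uncalled, turned positive without Schisandrin B replicate 1 (0.0789) and without vehicle replicate 1 (0.196), in a range of -0.475 to 0.196 with 1 library left out. In the latent complex list 2 genes fell, against 1, without a low-count filter and with the replicate block, and 1 to 2 with 1 library left out (2 without Schisandrin B replicate 2). Without the filter 10 negative regulators fell, against 7, 3 other SMADs, against 2, and 12 reported targets, against 10. In that setting 15 reported targets rose, against 14, and the median of all genes moved by -0.05. Among adaptors 5 rose, against 3, with library totals and with at least 5 CPM in 3 libraries, and 2 to 3 with 1 library left out. The replicate block gave 2 members higher and 2 lower. Same-numbered libraries had correlations of deviations of 0.0337, -0.0527 and -0.0113 across genes. These correlations are small, and they cannot tell whether such libraries shared a culture or batch. Without the filter, edgeR gave adjusted p = 0.489 for TGFB2, 0.999 for TGFBR2 and 0.846 for SMAD7. With 1 library left out, the log2 ratios of count rates ran from 0.54 to 1.82 for TGFB2, from -0.25 to 0.51 for TGFBR2 and from -0.06 to 0.59 for SMAD7. TGFB2 without vehicle replicate 1 has 0 vehicle counts and gave no value. Their 10 to 32 counts in all libraries limit what can be seen. The cause of these differences between settings was not tested.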
